A study of Mus musculus with 12 samples.

Results

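Neurotrophins and the receptors that read them were followed through ACC and HC of mice that had learned a visual task and of mice that had not. The group comprised 7 genes of the 27381 on the array, chosen by symbol: Bdnf (Entrez 12064), Ntf3 (18205), Ntrk2 (18212), Ntrk3 (18213), Ngfr (18053), Sort1 (20661) and Vgf (381677). Bdnf and Ntf3 encode the secreted ligands BDNF and neurotrophin-3, Ntrk2 and Ntrk3 their receptor tyrosine kinases TrkB and TrkC, Ngfr the p75 receptor and Sort1 the sorting receptor sortilin. Vgf, which is neither ligand nor receptor of this system, encodes a neuropeptide precursor that BDNF induces in neurons. The symbol of Ntf3 came from RefSeq through the Entrez ID of its probe set, and those of the other 6 from the platform table.

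RNA came from C57B16/J mice (spelled as in the labels) that had surgery for head fixation at 8 to 12 weeks of age and were kept water-deprived and tested on an air-cushioned ball. Trained mice learned to answer a visual cue for a water reward, which took 27 ± 2.6 days on average (the labels do not name the error). By the methods of the study, tissue was taken within a day of the trained mouse reaching the performance criterion. The values describe that time only, and earlier stages of learning were not measured. Control mice, called untrained in the labels, had the same handling and received water at random intervals. According to the study, each control was a same-sex littermate of a trained mouse and had as many days of training. ACC and HC were taken from the same mice. How these pairs were spread over the pools is not given, and the fit used here treats the 4 groups as independent. Region and training together gave 4 groups of 3 RNA pools, and every pool was hybridised to 1 Affymetrix Mouse Gene 2.0 ST array. A pool combined 5 mice for ACC, the anterior cingulate cortex, and 7 for HC, the hippocampus, according to the labels. Pools 1 and 2 of each group belonged to batch 1 and pool 3 to batch 2. The methods of the study describe a later repeat of the experiment with 1 pool per condition. The batches may thus differ in mice as well as in processing. The labels count 16 male and 18 female mice, fewer than HC pools of that size would need if no mouse entered more than 1 pool, whereas the methods of the study give more mice in all and call the pools biological replicates. The sources thus differ on the number of mice, and p-values measure the spread between these pools.

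Values were log2 expression levels, 1 per gene, normalized by the authors across arrays. Array medians ran from 3.34 to 3.42, and pools of a group correlated across genes at r = 0.994 to 0.995. The 1365 odorant and vomeronasal receptor genes, which brain tissue hardly uses, had a 95th percentile of 2.76, and this served as the background level. Markers matched the labelled regions, since HC was higher in 10 of 10 hippocampal subfield genes and lower in 7 of 10 cortical layer genes (higher in none). HC pools also carried more signal from some glia and bordering tissue, with 10 of 10 myelin genes, 7 of 10 astrocyte genes, 10 of 10 choroid plexus genes and 4 of 7 fibroblast genes higher. The thalamic list was mixed, as 4 of 8 genes were higher and 1 was lower. Fewer genes differed in 3 further lists. There, 2 of 6 microglia genes and 1 of 8 endothelial and pericyte genes were higher, and 1 of 7 interneuron genes was lower. Some pools stood apart. The mean of 3 Y-linked genes was 5.11, 3.89 and 4.33 in the ACC trained pools, all above the 3.38 to 3.59 of the ACC control pools. Training in ACC thus went with a difference in these genes, although the study paired mice of the same sex. In HC, trained (3.78 to 4.87) and control pools (3.96 to 5.04) overlapped. The mean of the myelin genes was 7.62 in ACC control pool 1 against 6.76 to 7.22 in the other ACC pools. HC trained pool 2 had a choroid plexus mean of 4.99, and the remaining HC pools had 5.39 to 5.56.

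Neurotrophins are made as precursors, sorted into secretory vesicles and released in part with neuronal activity. The mature ligands signal through Trk kinases to growth, survival and synaptic strength, with BDNF as the main ligand of TrkB and neurotrophin-3 of TrkC, while the p75 receptor binds all neurotrophins and, together with sortilin, their uncleaved precursors. In the hippocampus, BDNF and TrkB are best known for their part in long-term potentiation and memory.

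The array sums all transcripts of a gene into 1 value, and this matters most for Bdnf, whose transcription starts at several promoters that respond differently to activity. The RefSeq promoter table (GRCm38.p6) holds 7 start sites for Bdnf, 2 for Ntf3 and 1 each for Ntrk2 and Ngfr, 11 windows in all, and Ntrk3, Sort1 and Vgf were not matched. The 250 bases before each start were searched on both strands for the cAMP response element TGACGTCA, its half-site TGACG, which lies within the full element, and the E-box CACGTG. None of the 11 windows held the full element, which 1.55% of all 32851 windows hold. The half-site stood in 1 of the 11, at 1 Bdnf start (17.8% of all windows), and the E-box in 1 of the 11, at 1 Ntf3 start (6.02%). Printed 5′ to 3′ are that Bdnf window, as an example of the several starts behind the single Bdnf value, that Ntf3 window, and the window of Ntrk2, the other gene with an entry whose level differed between the regions. Capitals mark the half-site on the reverse strand in Bdnf and the E-box in Ntf3, and the Ntrk2 window holds none of these motifs.
Bdnf, chr2:109692186-109692435, + strand: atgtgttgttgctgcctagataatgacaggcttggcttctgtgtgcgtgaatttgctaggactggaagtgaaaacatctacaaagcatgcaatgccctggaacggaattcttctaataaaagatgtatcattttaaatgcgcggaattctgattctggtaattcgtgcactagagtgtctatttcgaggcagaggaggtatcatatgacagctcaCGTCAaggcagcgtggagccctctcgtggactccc
Ntf3, chr6:126166745-126166994, - strand: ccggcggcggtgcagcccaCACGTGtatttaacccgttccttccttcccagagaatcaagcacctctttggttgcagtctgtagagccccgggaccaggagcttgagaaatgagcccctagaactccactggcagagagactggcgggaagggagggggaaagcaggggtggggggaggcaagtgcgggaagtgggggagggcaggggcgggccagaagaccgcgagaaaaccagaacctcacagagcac
Ntrk2, chr13:58806319-58806568, + strand: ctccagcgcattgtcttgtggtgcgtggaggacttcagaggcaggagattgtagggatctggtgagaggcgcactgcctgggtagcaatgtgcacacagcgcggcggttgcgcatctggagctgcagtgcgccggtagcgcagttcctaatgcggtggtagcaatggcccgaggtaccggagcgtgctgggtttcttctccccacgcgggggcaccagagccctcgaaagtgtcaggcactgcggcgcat

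Between the regions, Ntf3 was higher in HC, and Vgf and Ntrk2 were lower in HC than in ACC. Bdnf itself, Ntrk3, Ngfr and Sort1 did not pass the test. The 3 genes that passed, of 7, compare with 18.5% of all genes that passed for HC against ACC at an adjusted p under 0.05, 9.71% higher and 8.74% lower in HC. Brighter genes passed more often, with 30% among genes at or above the median level. The median difference of the 7 genes was −0.08 on the log2 scale, against −0.01 over all genes. Ntf3, Ntrk2 and Vgf also passed in control mice alone (13.3% of all genes) and in trained mice alone (9.3% of all genes). In trained mice Ntrk2 no longer passed without ACC trained pool 2 (adjusted p = 0.0534), ACC trained pool 3 (0.0661) or HC trained pool 2 (0.0709), nor Ntf3 without ACC trained pool 1 (0.0536) or 2 (0.0524), all from limma. In batch 1 alone, with 2 pools per group, Ntrk2 did not pass in control mice (adjusted p = 0.156) or in trained mice (0.198), nor Vgf in trained mice (0.0955).

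**Figure D1:**
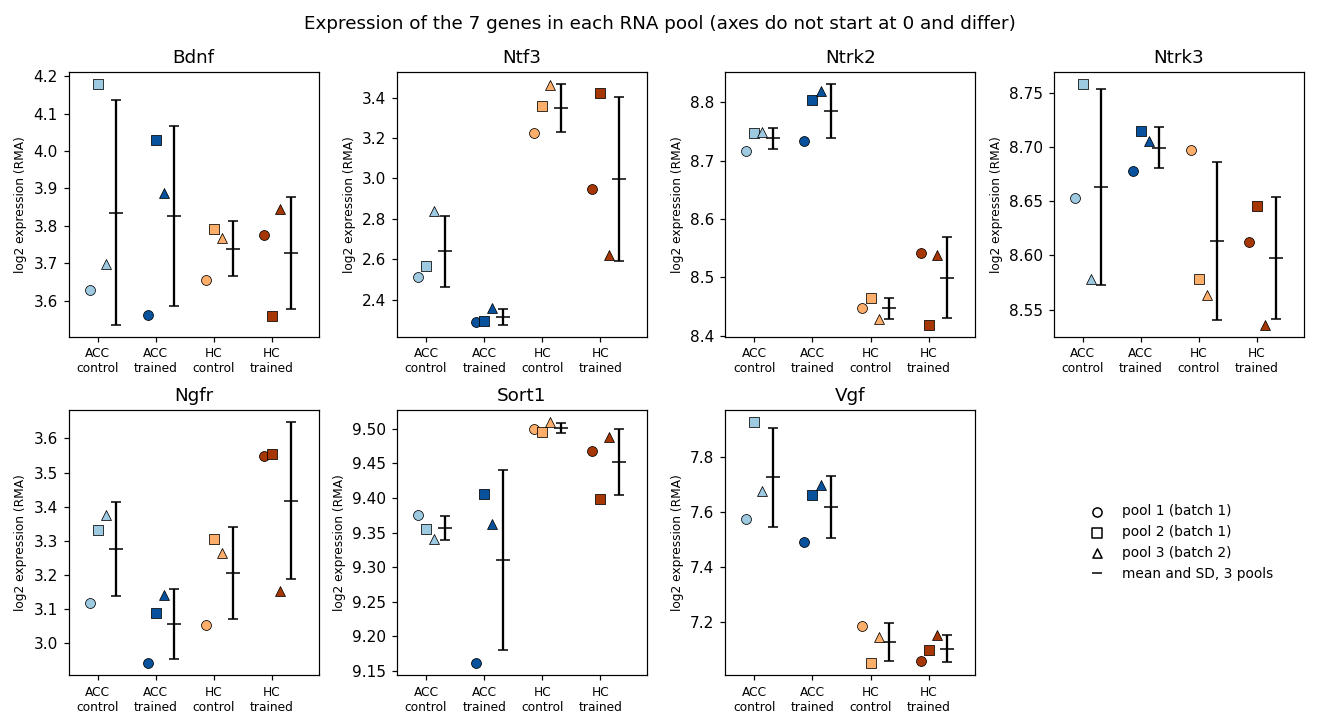
Log2 expression of the 7 genes in each of the 12 RNA pools, 1 panel per gene with its own axis. Symbols give the pool number and bars the mean and SD of 3 pools. The HC pools of Ntrk2 and Vgf lie below all ACC pools, while those of Bdnf and Ntrk3 overlap with them.

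Among the ligands, Ntf3 stood out. Neurotrophin-3 mRNA in the adult forebrain is known from granule neurons of the dentate gyrus and from CA2. Its log2 level was 2.52, 2.56 and 2.84 in the ACC control pools and 2.29, 2.29 and 2.36 in the ACC trained pools. In HC it was 3.22, 3.36 and 3.46 in the control pools and 2.95, 3.42 and 2.62 in the trained pools. All HC control pools thus lay above all ACC pools, whereas HC trained pool 3 fell below ACC control pool 3. HC minus ACC was 0.70 on the log2 scale (SE 0.11, 95% interval 0.45 to 0.94, adjusted p = 0.00077 from limma). It was 0.82 in batch 1 and 0.44 in batch 2, where each group has 1 pool. Only 1 of 6 ACC pools exceeded the background level against 5 of 6 HC pools, so the level in ACC is hardly distinct from background, and neither a fold nor the interval can be read as the exact size of the change in mRNA. The hippocampal subfield genes averaged 6.33 to 6.63 in HC pools against 4.46 to 4.60 in ACC pools, and their part was not tested. In such bulk tissue, fewer cells of a type and less RNA per cell cannot be told apart.

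Bdnf did not pass in any comparison, and its groups overlapped throughout. The ACC control pools were at 3.63, 4.18 and 3.70, the ACC trained pools at 3.56, 4.03 and 3.89, the HC control pools at 3.65, 3.79 and 3.77, and the HC trained pools at 3.78, 3.56 and 3.84. All 12 pools were above background. HC minus ACC was −0.10 (SE 0.11, 95% interval −0.33 to 0.13, adjusted p = 0.59 from limma). The ACC pools spread more widely, with an SD of 0.24 over 6 pools against 0.11 over the 6 HC pools, and ACC control pool 2 held the highest value.

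Of the Trk receptors, Ntrk2 was lower in HC and Ntrk3 did not differ beyond its spread. TrkB is found on neurons in a full-length form and on astrocytes mostly in a form without the kinase, and the array value does not separate these forms. Ntrk2 was at 8.72, 8.75 and 8.75 in the ACC control pools, 8.73, 8.80 and 8.82 in the ACC trained pools, 8.45, 8.46 and 8.43 in the HC control pools and 8.54, 8.42 and 8.54 in the HC trained pools. Every ACC pool was above every HC pool. The pools of the regions lay wholly apart for 2 of the 7 genes, Ntrk2 and Vgf, and, in either direction, for 11.1% of all genes. HC minus ACC was −0.29 (SE 0.05, 95% interval −0.39 to −0.19, adjusted p = 0.000819 from limma), or 1.22-fold more in ACC, with −0.28 in batch 1 and −0.30 in batch 2. The mean of the astrocyte genes moved the other way, at 7.28 to 7.41 in HC pools and 6.73 to 6.86 in ACC pools. Of these genes 7 of 10 were higher in HC, and the median difference of the list was 0.32, with the largest for Gfap (1.84). The 3 that did not pass were Aldh1l1 (−0.13), Slc1a2 (−0.08) and Gjb6 (0.02). The mean of the cortical layer genes moved the same way as Ntrk2, with 6.38 to 6.68 in HC and 7.12 to 7.31 in ACC. The part of either in the Ntrk2 difference was not tested.

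Ntrk3 ranged from 8.58 to 8.76 over the ACC pools (median 8.69) and from 8.54 to 8.70 over the HC pools (median 8.60), with wide overlap. HC minus ACC was −0.08 (95% interval −0.19 to 0.04, adjusted p = 0.373 from limma), so that the interval leaves out a difference as large as that of Ntrk2.

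The receptors for the precursors, Sort1 and Ngfr, did not pass. Sort1 was at 9.38, 9.36 and 9.34 in the ACC control pools, 9.16, 9.41 and 9.36 in the ACC trained pools, 9.50, 9.50 and 9.51 in the HC control pools and 9.47, 9.40 and 9.49 in the HC trained pools. The HC control pools were the highest, and the regions overlapped only through ACC trained pool 2 and HC trained pool 2. The difference between regions was 0.14 (SE 0.05, 95% interval 0.03 to 0.26, adjusted p = 0.0881 from limma), with 0.14 in batch 1 and 0.15 in batch 2. It passed in a fit of the brighter genes alone (adjusted p = 0.0398) and in a fit with a trended and robust variance (adjusted p = 0.0203). In the other 18 of 20 alternatives it did not pass, with an adjusted p of up to 0.338 from limma. With 1 pool left out the difference ran from 0.11 to 0.17.

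Ngfr, which in the adult forebrain marks cholinergic projection neurons of the basal forebrain, ranged from 2.94 to 3.38 over the ACC pools (median 3.13) and from 3.05 to 3.55 over the HC pools (median 3.28). All 12 pools were above background by a narrow margin. The difference between regions was 0.15 (SE 0.09, adjusted p = 0.276 from limma). None of 6 genes of cholinergic neurons differed between the regions, and 2 of the 6 had a mean above background in each region (Ache and Lhx8 over all pools).

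Vgf showed the difference with the smallest p of the 7. It was at 7.58, 7.93 and 7.68 in the ACC control pools, 7.49, 7.66 and 7.70 in the ACC trained pools, 7.19, 7.05 and 7.15 in the HC control pools and 7.06, 7.10 and 7.15 in the HC trained pools. The lowest ACC pool was above the highest HC pool. HC minus ACC was −0.56 (SE 0.07, 95% interval −0.70 to −0.41, adjusted p = 7.67e-05 from limma), or 1.47-fold more in ACC, with −0.56 in batch 1 and −0.54 in batch 2. In control mice the difference was −0.60 (adjusted p = 0.00134) and in trained mice −0.51 (adjusted p = 0.00411).

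**Figure D2:**
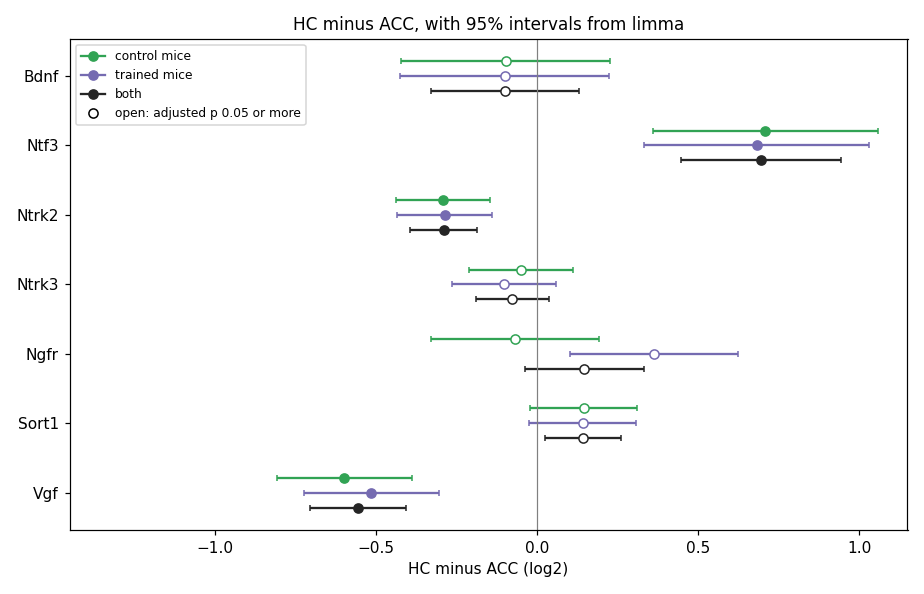
HC minus ACC on the log2 scale for each gene, in control mice, in trained mice and as the mean of both, with 95% intervals from limma. Filled points have an adjusted p under 0.05. Ntf3 lies at 0.70, Ntrk2 at −0.29 and Vgf at −0.56 for the mean of both, and their intervals leave out 0.

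The genes whose pattern over the 12 pools came closest to these were taken by the root mean square (RMS) difference of values centred on each gene's mean, among named genes at or above the median level. For Ntf3 they were Cd38, an ectoenzyme that consumes NAD (RMS 0.16 on the log2 scale), Plpp4 (0.17) and Smco3 (0.18). For Vgf they were Pdyn, the precursor of the dynorphin opioid peptides (RMS 0.07), Midn (0.08) and Mapk4, an atypical MAP kinase (0.08). The likeness is mostly that of region, since HC minus ACC was 0.71 to 0.83 for the former 3 genes and −0.56 to −0.41 for the latter 3.

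Training, the question of the study, gave no gene that passed the correction. In ACC, in HC, over both regions and for the region x training effect, 0 of the 7 genes passed, as did 0% of all 27381 genes (limma). At an unadjusted p under 0.05 there were 0 of the 7 in ACC (1902 genes in all, 6.95%), 1 in HC (1867 genes, 6.82%), 1 over both regions (1381 genes, 5.04%) and 1 for region x training (2427 genes, 8.86%). Trained pools lay wholly on 1 side of control pools for 1 of the 7 genes in ACC, Ntf3 (11.6% of all genes), and for 1 of the 7 in HC, Sort1 (12.3% of all genes).

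Ntf3 had the lowest unadjusted p over both regions. Trained minus control was −0.32 in ACC (SE 0.16, 95% interval −0.67 to 0.03) and −0.35 in HC (SE 0.16, 95% interval −0.70 to −0.002), and −0.34 as the mean of both (unadjusted p = 0.0113, adjusted p = 0.855 from limma). In ACC the 3 trained pools were below the 3 control pools, but all trained pools and 2 of the control pools were under the background level. The Y-linked mean separated the same pools, with 3.89 to 5.11 in trained and 3.38 to 3.59 in control pools, and the part of sex makeup in the Ntf3 difference was not tested. In HC the groups overlapped, with −0.11 in batch 1 against −0.84 in batch 2, where HC trained pool 3 held the lowest HC value. Without that pool it was −0.16, and without HC trained pool 2, the highest trained pool, −0.56.

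For Bdnf, trained minus control was −0.01 in ACC (95% interval −0.33 to 0.31) and −0.01 in HC (95% interval −0.34 to 0.31), with adjusted p = 0.996 and 0.997 from limma. Differences beyond these bounds lie outside the intervals, but with 3 pools per group a difference of that size need not have passed the correction. Ntf3 in HC, at −0.35, had an adjusted p = 0.729 from limma. Bdnf had a mean level of 3.78 against the background level of 2.76. Its intervals thus bound the array signal and cannot be read as exact bounds on the change in mRNA. Ntrk2 gave 0.05 in ACC (95% interval −0.10 to 0.19) and 0.05 in HC (95% interval −0.09 to 0.20). Ntrk3 gave 0.04 (95% interval −0.13 to 0.20) and −0.02 (95% interval −0.18 to 0.15) in these regions. The array signals of Ntrk2 and Ntrk3 were thus bounded more tightly than those of the ligands.

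Vgf, the gene that BDNF induces, gave −0.11 in ACC (95% interval −0.32 to 0.10) and −0.02 in HC (95% interval −0.23 to 0.18). Sort1 gave −0.05 in ACC (95% interval −0.21 to 0.12) and −0.05 in HC (95% interval −0.22 to 0.12). In HC its control pools were tightly grouped, from 9.50 to 9.51, above trained pools from 9.40 to 9.49. In ACC the lowest Sort1, Bdnf, Ngfr, Vgf and Ntf3 values were those of trained pool 1, for Ntf3 narrowly (2.2925 against 2.2934 in trained pool 2). That pool had the highest Y-linked mean of the ACC pools. Its means of fibroblast (4.946), astrocyte (6.861), microglia (5.62) and thalamic genes (4.765) were also the highest in ACC. The same held narrowly for endothelial and pericyte genes (5.521 against 5.518 in control pool 2), but not for the other lists. The part of that pool's makeup was not tested.

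Ngfr had the largest region x training difference of the 7 genes. The ACC control pools were at 3.12, 3.33 and 3.38 and the ACC trained pools at 2.94, 3.09 and 3.14. The HC control pools were at 3.05, 3.30 and 3.26 and the HC trained pools at 3.55, 3.55 and 3.15. Trained minus control was thus −0.22 in ACC (95% interval −0.48 to 0.04) and 0.21 in HC (95% interval −0.05 to 0.47), with groups that overlapped in each region. HC minus ACC of these differences was 0.43 (SE 0.17, unadjusted p = 0.0256, adjusted p = 0.486 from limma). The batches gave opposite signs for this difference in HC (0.37 in batch 1, −0.11 in batch 2) and like values in ACC (−0.21 and −0.24). In trained mice alone, HC minus ACC of Ngfr was 0.36 (adjusted p = 0.0875 from limma). It passed in 1 of 19 alternatives, without HC trained pool 3 (0.50, adjusted p = 0.0171). In the other 18 it did not pass, with an adjusted p of up to 0.261. With 1 pool left out the difference ran from 0.29 to 0.50.

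**Figure D3:**
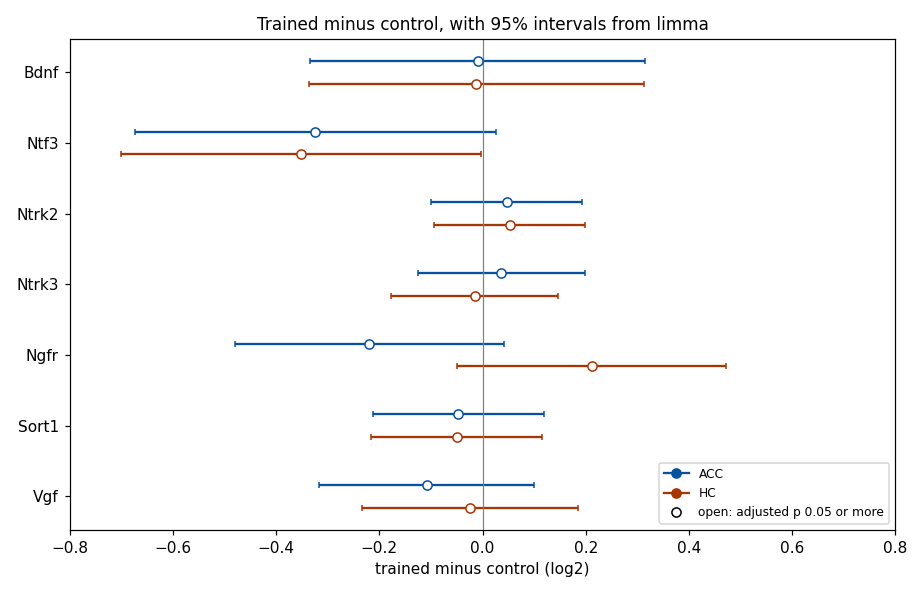
Trained minus control on the log2 scale for each gene in ACC and in HC, with 95% intervals from limma. All points are open because none had an adjusted p under 0.05. Ngfr lies at −0.22 in ACC and 0.21 in HC, and Ntf3 at −0.32 and −0.35.

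The surrounding pathway was read from 5 lists of 65 other genes. Between the regions 11 were higher in HC, 15 were lower and 39 did not pass (40% called, against 18.5% of all genes and 30% of the brighter ones). Their median difference was 0.02. Among 5 other ligands and receptors, 2 were lower and none was higher. Sorcs1, a sortilin relative, was lower in HC, at −1.26 (SE 0.10, adjusted p = 1.57e-06 from limma), and Sorl1, the sorting receptor known from Alzheimer's disease, differed by −0.33. Sorcs2, a partner of p75, differed by 0.14 (adjusted p = 0.154), Sorcs3 by −0.08 and Ntf5 (neurotrophin-4) by −0.06. Ntf5 had a mean level of 2.10, below background.

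Of 10 co-receptors and adaptors of p75, 2 were higher in HC and 2 lower. Rtn4r and Lingo1, which form the Nogo receptor complex with p75, were the lower ones, at −0.36 and −0.35. Zfp110, which encodes a zinc finger protein that binds p75, was higher by 0.38 and Traf6, a ubiquitin ligase, by 0.21. Of 16 adaptors and signalling genes of Trk receptors, 3 were higher and 4 lower. Shc3, the neuronal Shc adaptor, stood at −0.54 (adjusted p = 1.17e-05 from limma), Dok5 at −0.50 and Pik3r1, a PI3 kinase subunit, at −0.31, while the docking protein Gab1 was higher by 0.55 (adjusted p = 0.000241).

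Enzymes that cleave prohormones, the VGF precursor among them, form the next list. Of its 20 processing and granin genes 3 were higher in HC and 5 lower. Pcsk1 and Pcsk2, the prohormone convertases of neurons, stood at −0.99 and −0.60 (adjusted p = 0.000239 and 1.48e-05 from limma), and Serpini1 (neuroserpin), which inhibits tissue plasminogen activator, stood at −0.38. Cpe, the carboxypeptidase of secretory granules, was higher by 0.26. Of 14 regulators of Bdnf and Vgf transcription 3 were higher and 2 lower, the latter Mef2c, a neuronal transcription factor, at −1.41 and Npas4, an activity-induced factor that binds Bdnf promoters, at −1.35. Crtc3, a CREB coactivator, was higher by 0.35 and Mef2a by 0.17.

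**Figure D4:**
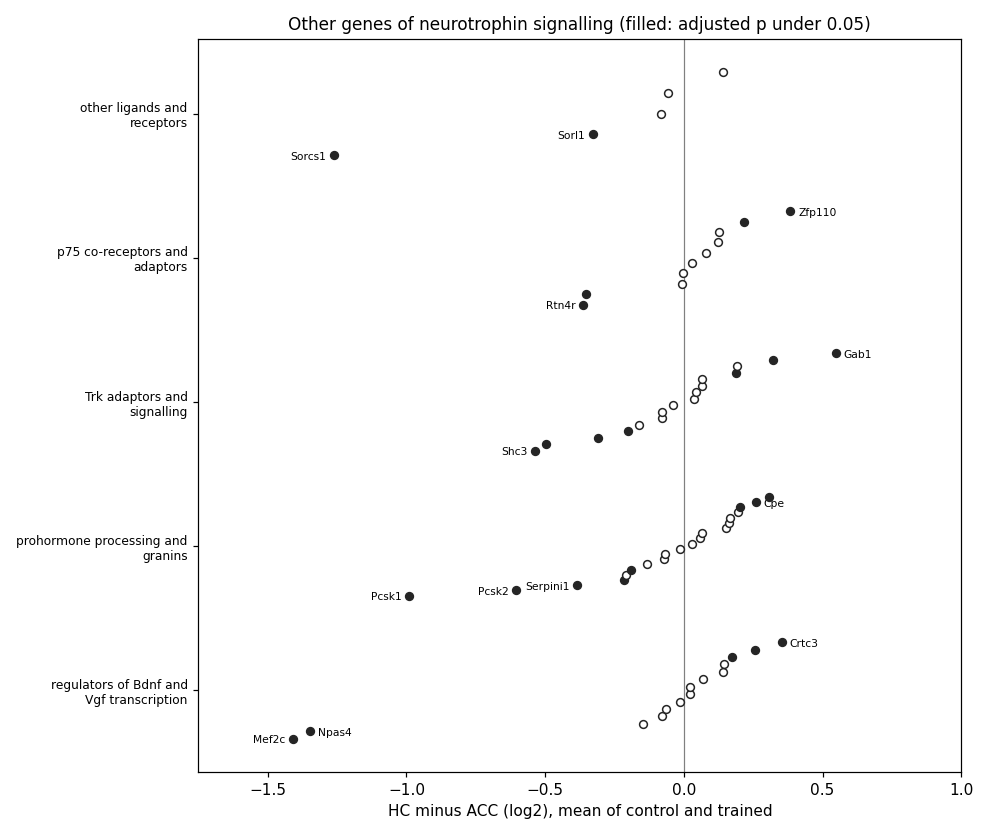
HC minus ACC on the log2 scale for the 65 other genes, by list, with 1 point per gene. Filled points have an adjusted p under 0.05. Mef2c, Npas4 and Sorcs1 lie farthest to the left, at −1.41, −1.35 and −1.26, and Gab1 farthest to the right, at 0.55.

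With training, 0 of the 65 genes passed in ACC and 0 in HC (limma). At an unadjusted p under 0.05 there was 1 of the 65 in ACC (6.95% of all genes) and there were 3 in HC (6.82% of all genes). For region x training there were 4 (8.86% of all genes), and 0 of the 65 passed. In ACC the smallest p was that of Mmp9, a metalloproteinase that can cleave proBDNF, at −0.37 (SE 0.10, unadjusted p = 0.00278, adjusted p = 0.51) and a mean level of 2.97, near background. The smallest p of the other 4 lists were those of Sorl1 (−0.04), Rtn4r (0.10), Sos1 (0.15) and Creb1 (0.16). In HC the smallest was that of Frs3, a Trk docking protein, at 0.28 (SE 0.09, unadjusted p = 0.00872, adjusted p = 0.56). Those of the other lists were Ntf5 (0.16), Bex1 (−0.28), Pcsk5 (0.15) and Usf1 (−0.12).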

How the data were processed

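Expression was measured on 12 arrays in 4 groups of 3 pools. The authors processed the Affymetrix Mouse Gene 2.0 ST arrays with affy 1.62.0 in R 3.6.0, using Robust Multiarray Average and Brainarray probe sets defined by Entrez gene. The values they deposited are log2 expression levels of 27381 genes. Which arrays were normalized together is not given in the sources used here. Symbols came from the platform table for 26794 probe sets and from RefSeq by Entrez ID for 564 more, and 23 have none. In R 4.3.3, limma 3.58.1 fitted 4 group means to every gene, unfiltered and with no covariate (lmFit, then eBayes). Adjusted p-values are those of Benjamini and Hochberg across the whole array, with 0.05 as the threshold. The 95% intervals use the moderated t with 12.6 degrees of freedom and cover each gene alone. The procedure was tested on simulated data for the difference between regions alone, with independent noise. Training and region x training effects, batches and shared mice were not simulated. Precision is limited by the number of pools, as arrays carry no read depth.

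The 7 genes and the lists were chosen with earlier results of these data known. Of each pathway list, the 4 genes with the smallest p between regions and the 1 with the smallest p for training in each region are named, and all other ligands and receptors of that list; some items of the lists are not reported here and were left out of every count of them. For genes that passed between regions at a difference of 0.5 or more, the 3 most alike genes are named, leaving out predicted genes, receptor genes of the nose and small RNAs. The alternatives tried were a block for batch or for replicate number, batch 1 alone, 1 region alone, the brighter genes alone, quantile normalization again, median centring, a trended and robust variance, array weights, and each pool left out in turn.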

Additional observations from a re-analysis of the deposited data

How the results depend on the processing

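The HC against ACC differences of Ntf3, Ntrk2 and Vgf kept their direction and an adjusted p under 0.05 in every alternative run, except that Ntf3 was not tested among the brighter genes, its mean level being under the median. In trained mice alone, 1 of the 7 genes passed in batch 1 alone, against 3 in all pools, and leaving out 1 pool gave 1 to 4 (1 without ACC trained pool 2). There, batch 1 gave −0.29 for Ntrk2 and −0.50 for Vgf, neither of which passed with 2 pools per group, and Ntrk2 in control mice, at −0.28, did not pass either. Of the 65 pathway genes 17 passed for HC against ACC in batch 1 alone, against 26 in all pools. Over all genes, batch 1 alone called 2863 for HC against ACC, 1633 in control mice and 1135 in trained mice, against 5054, 3649 and 2547. Leaving out 1 pool gave 4254 to 4769, 2400 to 3635 (2400 without HC control pool 2) and 1858 to 2560, and 0 to 1 for region x training (1 without ACC trained pool 2).

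Differences near 0 changed sign. Bdnf with training in ACC was 0.0104 after quantile normalization, 0.0277 after median centring, 0.0195 with array weights and −0.113 to 0.1625 with 1 pool left out, and in HC it was 0.0002 with array weights and −0.0713 to 0.072 with 1 pool left out. Ntrk3 in ACC was −0.0091 in batch 1 alone and −0.0062 to 0.0839 with 1 pool left out, and in HC −0.0399 to 0.0267. Sort1 in ACC ran from −0.0949 to 0.0273, the latter without ACC trained pool 1. Vgf in HC was 0.0012 after quantile normalization and −0.0631 to 0.0041 with 1 pool left out, and Ngfr between regions in control mice −0.1472 to 0.0084. The cause of these shifts was not tested. Of 622 values of single genes under an alternative, 594 kept direction and side of the threshold, 8 no longer passed, 3 newly passed and 17 changed sign.

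Same-numbered pools share a number and a batch. Deviations of same-numbered pools from their group means correlated across genes at r = −0.27 to 0.04. Pairs of pools numbered 3, those of batch 2, were all negative, at −0.27 to −0.18. Pairs numbered 1 or 2 ran from −0.12 to 0.04, and the reason for this split was not tested. For pools of different number the correlation was −0.15 to 0.18. Deviations from means of 3 pools cannot show whether pools share mice or littermates, so pairing by number stays undecided. With the replicate number as a block, 3 of the 7 genes, 23 of the 65 pathway genes and 4431 of all genes passed for HC against ACC, and none passed for training.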
